A study of Mus musculus with 24 samples.

Results

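Meg3, Rian, Mirg, Snhg11, Malat1, Neat1 and Miat are 7 long noncoding RNAs, and they were read here as 7 of the 49568 gene symbols in the raw counts of mouse hippocampal libraries. The members were picked by symbol as abundant nuclear RNAs, with the libraries other than 33B and 34B, their levels across the 4 groups and their relation to the share of fragments in no gene in view. Those values are therefore given as a description, and the fits below are no independent evidence for the choice. The libraries came from poly-A RNA of whole tissue, so the place of the RNA in the cell was not measured.

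The study asked whether the response of the hippocampus to an enriched environment needs the kinase activity of MSK1, a kinase of the nucleus that acts on CREB and on histone H3. Male mice of the C57-Bl/6J background were homozygous either for the wild-type allele (WT) or for an allele that leaves MSK1 without kinase activity (MSK1 KD, here KD), and the genotypes were bred as separate lines. They lived in standard housing (SH) or, from before birth, in large cages with a running wheel, tunnels and toys (EE), and were sampled at 12 weeks without behavioral testing. The groups WT SH, WT EE, KD SH and KD EE held 6, 5, 6 and 5 libraries, 22 of 24, since 33B (WT EE) and 34B (KD EE) had failed quality control. Because the KD allele still makes its transcript, the level of MSK1 RNA does not check the genotype labels. Nothing in the labels ties libraries to separate animals, so p-values measure the spread between these libraries, and separate breeding means that genotype and line cannot be told apart. Housing was given by cage, and the labels name neither cage nor litter, so libraries of the same group may share either.

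Long noncoding RNAs of this kind are made by RNA polymerase II, as messenger RNA is, but act as RNA. Meg3, Rian and Mirg are transcribed in the same direction from the maternal copy of the imprinted Dlk1-Dio3 region, and their transcripts carry small nucleolar RNAs and many microRNAs. Malat1 gathers in nuclear speckles, which hold splicing factors, and Neat1 is the scaffold of paraspeckles. Miat marks a separate set of nuclear foci in neurons, and Snhg11 is the host of small nucleolar RNAs and is enriched in neurons.

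In GENCODE M21 on GRCm38, the imprinted genes stand in a row on the plus strand of chromosome 12: Meg3 (ENSMUSG00000021268) at chr12:109541001-109571726, Rian (ENSMUSG00000097451) at chr12:109603940-109661716 and Mirg (ENSMUSG00000097391) at chr12:109729764-109749460. Malat1 (ENSMUSG00000092341, chr19:5795690-5802672) and Neat1 (ENSMUSG00000092274, chr19:5824708-5845478) lie on the minus strand of chromosome 19, 22036 bases apart, and each is 1 exon block. Snhg11 (ENSMUSG00000044349) is at chr2:158375638-158386145 on the plus strand, and Miat (ENSMUSG00000097767) at chr5:112213228-112229395 on the minus strand. GENCODE types Snhg11 as protein coding and RefSeq as a long noncoding RNA. Counting ignored the strand, so exon bases shared with another gene could not be assigned with certainty: 30.4% of those of Miat, 8.29% of those of Meg3 and 7.72% of those of Malat1 were shared, and for Miat most of them lay under the antisense gene Gm26953. The counts were made on a different annotation, Ensembl 87, in which the shared bases may differ.

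The promoters of Meg3 and Malat1 are shown because MSK1 acts on CREB, whose binding element (CRE) is TGACGTCA, with TGACG (or CGTCA on the other strand) as its partial form. RefSeq on GRCm38.p6 gave windows of 250 bases before to 50 after the start for 6 of the 7 members, with none for Neat1. Capitals mark CRE letters.
Meg3 promoter, chr12:109540746-109541045, plus strand: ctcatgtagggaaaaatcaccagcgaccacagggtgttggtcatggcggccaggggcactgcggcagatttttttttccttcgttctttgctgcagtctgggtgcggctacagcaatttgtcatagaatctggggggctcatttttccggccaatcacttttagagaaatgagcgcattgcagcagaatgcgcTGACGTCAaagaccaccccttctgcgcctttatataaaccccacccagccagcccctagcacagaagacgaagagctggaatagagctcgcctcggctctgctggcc
Malat1 promoter, chr19:5802623-5802922, minus strand: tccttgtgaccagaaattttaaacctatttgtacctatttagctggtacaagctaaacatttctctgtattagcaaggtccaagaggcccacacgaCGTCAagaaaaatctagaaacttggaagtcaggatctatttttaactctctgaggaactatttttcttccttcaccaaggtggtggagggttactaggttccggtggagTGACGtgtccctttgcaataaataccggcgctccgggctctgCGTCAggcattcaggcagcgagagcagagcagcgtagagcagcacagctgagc
The Meg3 window held the full element 57 bases before the start, and the partial forms in it are the same letters. The Malat1 window held 3 partial forms and no full element. The full element was found in 1.79% of 32851 promoter windows and a partial form in 20.8%. The second Meg3 window and the windows of Rian, Mirg, Snhg11 and Miat held neither. The RefSeq starts of the second Meg3 window (109545398), of Mirg (109734981) and of Miat (112228948) lie inside the GENCODE genes. Their windows do not reach the GENCODE first bases, which are 109541001 for Meg3, 109729764 for Mirg and 112229395 for Miat. These matches describe letters and say nothing about binding.

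The imprinted members are also hosts of microRNAs, and sequences within Mirg are shown because Mirg was the least abundant member and the one with the most microRNAs. RefSeq listed 14 microRNA genes with 26 mature sequences and 25 seeds within Mirg, 3 genes with 6 mature sequences within Rian and 2 genes with 3 within Meg3. Below, capitals mark the seed, bases 2 to 8.
mmu-miR-134-5p: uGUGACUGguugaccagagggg
mmu-miR-453: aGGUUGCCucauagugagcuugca
mmu-miR-496a-5p: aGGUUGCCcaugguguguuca
miR-453 and miR-496a-5p are the only pair within Mirg with the same seed. miR-134 is known for limiting the growth of dendritic spines through Limk1. Poly-A libraries do not measure mature microRNAs, so the Mirg values below are those of the host transcript.

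Counts on genes were between 8911999 and 56752074 fragments per library in the 22 libraries (median 30265878). The smallest Mirg count among them was 252, in library 9, so counting error was small beside the spread between libraries. A floor of 3 counts corresponded to between 0.0529 and 0.337 CPM (fragments scaled to a common library size on genes, by TMM), under every member's level. Fragments in no annotated gene, counted by the authors' tool outside all exons, were between 10.05% and 14.2% of all counted fragments, and the 7 members together took between 0.649% and 1.04% of the counts on genes. Library 33B had 35.6% of its fragments in no gene and 18.5% ambiguous between genes, and library 34B had 16442 counts. Ambiguous fragments were between 3.77% and 4.41% in the 22 libraries. The study reported ribosomal RNA contamination in both failed libraries. Codes with a letter occur only among the EE libraries, so what the letter stands for and housing cannot be told apart in those libraries. The summed level of the 12 neuron markers was between 12562 and 14814 CPM in the 22 libraries, and no marker gene of the lists used was at 0 throughout.

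**Figure D1:**
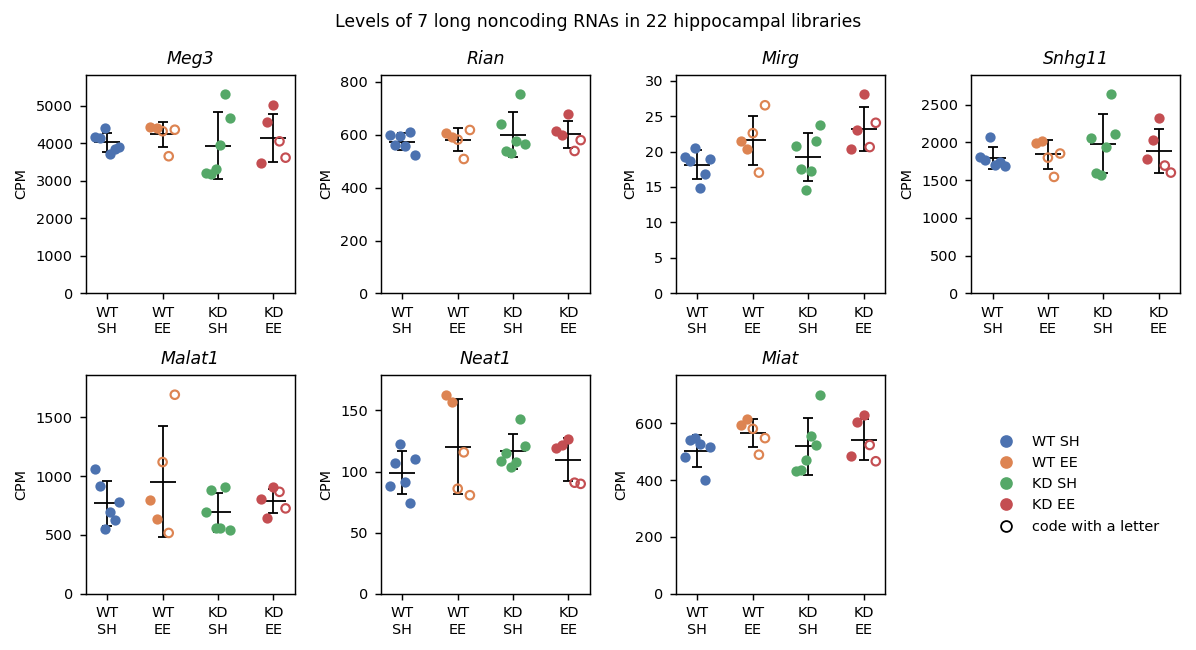
CPM of the 7 members in the 22 libraries (points, 1 panel a gene, linear axis from 0) by group, with the group mean and SD as bars. Open points are libraries whose code has a letter, and the Malat1 panel shows library 35A alone at 1692 CPM.

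The members spanned a wide range of levels. By CPM, Meg3 ranked 7th of 18482 genes tested, with a mean of 4074 CPM, and Snhg11 ranked 21st with 1876 CPM. Malat1 (794 CPM), Rian (589.7 CPM) and Miat (531 CPM) also lay within the top 233 genes. Neat1, with 111 CPM, ranked 2042nd, and Mirg, with 20.4 CPM, 7932nd, so abundant is not a fit name for Mirg in these libraries. A list of other long noncoding RNAs held 1700020I14Rik at 495 CPM and Peg13 at 286 CPM, both above Neat1 and Mirg (both named after their values were seen).

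Genes can be compared in level only per length. Per kb of exon, the mean levels were 225 CPM for Meg3, 220.2 for Snhg11, 114 for Malat1, 57.1 for Miat, 32.3 for Rian, 5.35 for Neat1 and 2.80 for Mirg. This order held in 15 of the 22 libraries, with Snhg11 above Meg3 in 6 more and Malat1 above both in library 35A alone. Meg3 and Snhg11 did not differ beyond their spread. Lengths are those of all exons annotated in GENCODE M21, while the counts were made on Ensembl 87, and a gene that uses a short isoform is understated. The libraries were made from poly-A RNA, so transcript forms without a poly-A tail are understated too. How far this lowered any member was not measured.

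Spread differed among the members. Within groups, the SD of log2 CPM was 0.42 for Malat1, 0.30 for Neat1, 0.21 for Mirg, 0.21 for Meg3, 0.20 for Snhg11, 0.20 for Miat and 0.13 for Rian, against a median of 0.13 over the genes of 10 CPM or more. Malat1 varied more than 99.2% of these genes, Neat1 more than 97.7%, and Rian more than 54.5%. Members also tended to be extreme in the same libraries. Library 9, the shallowest of the 22, had the highest value of KD EE for 7 of 7 members. Library 5 had the highest of KD SH for 5, library 12 the highest of WT SH for 5, and library 33A the lowest of WT EE for 6.

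Meg3, a maternally expressed RNA that can repress genes through Polycomb, was even between groups. It was at 3722, 4019.9 and 4404 CPM (lowest, median, highest) in WT SH, and at 4437, 4393, 4319, 3653 and 4359 CPM in WT EE (libraries 16, 17, 31B, 33A and 35A). In KD SH it was at 3174, 3629 and 5299 CPM, and in KD EE at 3463, 4553, 5014, 4050.0 and 3615 CPM (libraries 7, 8, 9, 32A and 36A). The 4 groups overlapped, and the widest was KD SH, where library 5 was highest and library 2 lowest.

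Rian, the next transcript along the imprinted region and a host of small nucleolar RNAs, was the steadiest member. It lay between 508.6 and 753 CPM, with group means of 575 ± 33.7 in WT SH (SD, n = 6), 582 ± 43.3 in WT EE (n = 5), 601 ± 84.0 in KD SH (n = 6) and 602 ± 50.9 in KD EE (n = 5). No group stood apart from the others.

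Mirg, the last transcript of the row, was at 14.8, 18.8 and 20.5 CPM (lowest, median, highest) in WT SH and at 21.5, 20.4, 22.6, 17.03 and 26.5 CPM in WT EE (libraries 16, 17, 31B, 33A and 35A). In KD SH it was at 14.6, 19.2 and 23.7 CPM, and in KD EE at 20.4, 23.0, 28.1, 20.6 and 24.1 CPM (libraries 7, 8, 9, 32A and 36A). Enriched libraries lay toward the top of both genotypes, but the groups overlapped: 3 of 5 WT EE libraries were above all 6 WT SH libraries, and 2 of 5 KD EE libraries were above all 6 KD SH libraries.

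Malat1, the speckle RNA, was at 547, 735 and 1064 CPM in WT SH and at 797, 638, 1120 and 517 CPM in WT EE libraries 16, 17, 31B and 33A, with 1692 CPM in library 35A. In KD SH it was at 543, 627 and 909 CPM, and in KD EE at 802, 643, 904, 866 and 726 CPM (libraries 7, 8, 9, 32A and 36A). WT EE held both the lowest and the highest of the 22 values, and library 35A, which also had the largest share of fragments in no gene, stood above every other library.

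Neat1, the paraspeckle scaffold, was at 74.5, 99.3 and 123 CPM in WT SH and at 163, 157, 85.9, 116 and 80.6 CPM in WT EE (libraries 16, 17, 31B, 33A and 35A). In KD SH it was at 104, 112 and 143 CPM, and in KD EE at 119.6, 122, 127, 90.8 and 89.9 CPM (libraries 7, 8, 9, 32A and 36A). Libraries 16 and 17 were above the other 20, while 31B and 35A of the same group lay among the lower WT SH values.

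Snhg11 lay between 1542 CPM (library 33A) and 2634 CPM (library 5), with group means of 1793 ± 141 in WT SH (SD, n = 6), 1841 ± 192 in WT EE (n = 5), 1982 ± 393 in KD SH (n = 6) and 1883 ± 291 in KD EE (n = 5). Miat lay between 402 CPM (library 14) and 701 CPM (library 6), with group means of 504 ± 55.2, 566 ± 48.7, 519 ± 101 and 542 ± 71.7 CPM in the same order. For neither gene did the groups separate.

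The fitted comparisons asked whether enrichment changed the members in each genotype, whether genotype did so in each housing, and whether these responses differed. None of the 7 members was called in any of 7 comparisons of the 22 libraries, where a call needed a log2 fold change of at least 0.38 in size as well as an adjusted p no higher than 0.05 (edgeR quasi-likelihood test, Benjamini-Hochberg over 18482 genes). The background was as low: 0% of genes were called for WT EE against WT SH, 0% for KD EE against KD SH, 0% for WT SH against KD SH, 0% for WT EE against KD EE, 0% for the interaction and 0% for genotype averaged over housings. For housing averaged over genotypes it was 0.146%, or 27 genes, of which 22 were higher and 5 lower in EE. At an unadjusted p under 0.05, edgeR counted 1598 genes for WT EE against WT SH, 1779 for KD EE against KD SH, 1065 for WT SH against KD SH, 482 for WT EE against KD EE, 377 for the interaction, 2983 for housing averaged and 1120 for genotype averaged. DESeq2's Wald test called 18, 4, 2, 0, 0, 214 and 0 genes in the same order and also none of the members.

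In WT mice, the 7 members all had positive estimates in EE, with a median log2 fold change of 0.17 against 0.01 over all genes tested, and none passed the test. The largest were Malat1 at 0.31 (SE 0.22, adjusted p = 0.769), Neat1 at 0.28 (SE 0.16, adjusted p = 0.654) and Mirg at 0.25 (SE 0.12, adjusted p = 0.553). Without library 35A the Malat1 estimate was -0.01. Miat was at 0.17, Meg3 at 0.07, Snhg11 at 0.04 and Rian at 0.02. The joint direction depended on the libraries and the fit. Without library 35A, 5 of the 7 estimates were positive, with a median of 0.055. In the 17 libraries that the study used, 5 were positive, with a median of 0.092. With the share of fragments in no gene as a covariate in the 22, 3 were positive, with a median of -0.043. The ratios of Rian and of Mirg to Meg3, given below, did not differ significantly between these groups after correction.

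In KD mice, 5 of the 7 estimates for EE were positive, with a median of 0.06. Mirg was again near the top at 0.27 (SE 0.12, adjusted p = 0.492), followed by Malat1 at 0.19 and Meg3 at 0.07. Neat1 was at -0.09 and Snhg11 at -0.07. Averaged over genotypes, Mirg had a log2 fold change of 0.26 in EE (SE 0.08, unadjusted p = 0.00465, adjusted p = 0.118), and leaving out each library in turn gave between 0.21 and 0.30. Mirg was not called under any of 35 alternatives, with adjusted p between 0.0621 and 0.9997. Marker sums moved with Mirg: over the 22 libraries its r was -0.70 with the microglia sum and -0.45 with the neuron sum. Of the markers themselves, 2 of 8 for microglia and 3 of 12 for neurons had positive estimates in EE averaged over genotypes, and the others negative ones, with none called, and their part in the Mirg values was not tested.

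Genotype made no called difference either. For WT SH against KD SH the median of the 7 was -0.06, with Neat1 at -0.23 (SE 0.15, adjusted p = 0.836) and Malat1 at 0.16 (SE 0.21, adjusted p = 0.940). For WT EE against KD EE the median was 0.03, with Malat1 at 0.27 (SE 0.23, adjusted p = 0.99999), which was -0.04 without library 35A. The interaction, the direct test of whether the genotypes responded differently to enrichment, was 0.37 for Neat1 (SE 0.22, adjusted p = 0.99996).

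**Figure D2:**
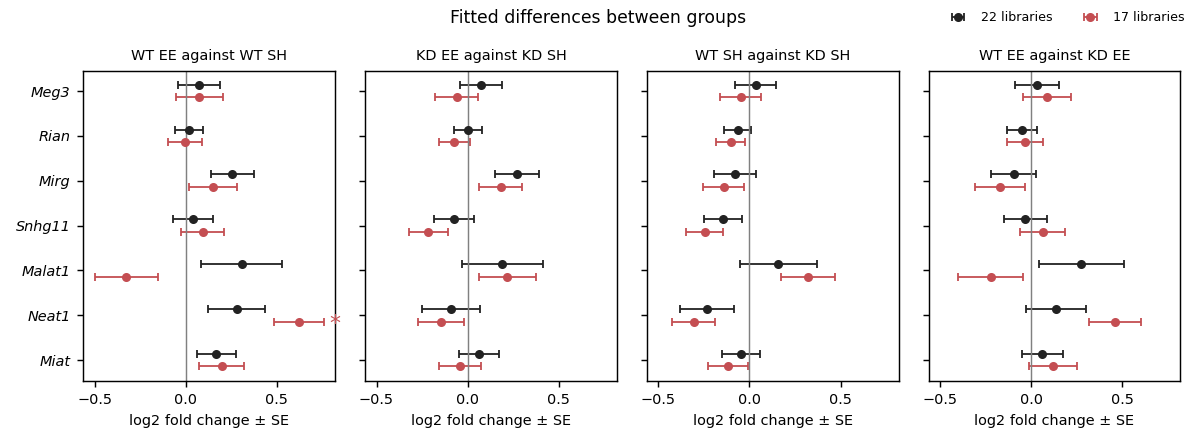
Fitted log2 fold changes (points) with their SE (bars) of the 7 members in 4 comparisons, in the 22 libraries (black) and in the 17 libraries of the study (red). The star marks the call of Neat1 in the 17 libraries at 0.62, and Malat1 in the leftmost panel lies at 0.31 in the 22 and at -0.33 in the 17.

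The study itself used 17 libraries, after leaving out 2, 9, 12, 31B and 35A for weak correlation within their groups. In these, 1 of 7 members was called for WT EE against WT SH, beside 3.55% of 18701 genes. That member was Neat1, at 116 to 163 CPM in the 3 WT EE libraries left and at 74.5 to 111 CPM in the 5 WT SH libraries. Its log2 fold change was 0.62 (SE 0.13, adjusted p = 0.0064, edgeR). None of the 7 was called for KD EE against KD SH, beside 1.74% of genes, or for housing averaged over genotypes, beside 3.85%. The Neat1 interaction in the 17 libraries was 0.77 (SE 0.19, unadjusted p = 0.000434, adjusted p = 0.812), so a difference between the genotypes in the Neat1 response did not pass the correction.

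The Neat1 call in the 17 libraries was lost without library 16 (0.53, adjusted p = 0.0737) and without library 17 (0.56, adjusted p = 0.058), and was kept when any of the other 15 was left out (adjusted p between 0.00199 and 0.0229). The same 17 libraries differed in another tissue. Genes of the choroid plexus, which secretes cerebrospinal fluid and lies against the hippocampus, were called in both housing comparisons for 15 of 15 markers, none of which was at 0 throughout. Their summed level was 7775, 6040 and 8187 CPM in WT EE libraries 16, 17 and 33A, against 247 to 1368 CPM in the 5 WT SH libraries. In the WT EE libraries that the study left out, 31B and 35A, the choroid sum was 269 and 236 CPM, and Neat1 was lower too. In KD EE, library 36A had the highest choroid sum of all, 8494 CPM, with Neat1 at 89.9 CPM, the lowest of its group. With the choroid plexus level of each library as a covariate, Neat1 was at 0.14 for WT EE against WT SH in the 22 libraries. Without the covariate it was at 0.28 there, and neither fit called it. In the 17 libraries with the covariate, Neat1 was at 0.90 with an adjusted p of 0.9995 and was no longer called. That fit called 0 of 18701 genes for WT EE against WT SH, against 664 without the covariate. The choroid sum moved with housing in these libraries, so the 2 cannot be told apart. The part of choroid plexus in the Neat1 call was not tested. In WT EE against WT SH without that covariate, 4 of 5 blood markers, hemoglobin genes, and 3 of 7 ependymal markers were also called higher. The summed blood level was 128 CPM in library 17, 86.5 CPM in library 16 and 56.0 CPM in 33A, against 37.2 to 49.7 CPM in the 5 WT SH libraries. Over the 22 libraries, Neat1 had a Pearson r of 0.40 with the choroid sum, 0.36 with the ependymal sum and 0.65 with the blood sum, and -0.55 with the neuron sum and -0.56 with the astrocyte sum. In bulk tissue, fewer cells of a type and less RNA per cell cannot be told apart.

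Ratios between members within a library need no scaling. Rian to Meg3 was between 0.120 and 0.201 in the 22 libraries (median 0.141), Mirg to Meg3 between 0.00398 and 0.00665, and Malat1 to Meg3 between 0.116 and 0.388. Neat1 to Malat1 moved most, from 0.0476 in library 35A to 0.246 in library 17. Of 16 comparisons of ratios between groups, none passed the correction (two-sided exact permutation tests, adjusted p between 0.568 and 0.935). The lowest exact p, 0.0476, was that of Mirg to Meg3 in WT EE against WT SH, a difference of 0.17 on the log2 scale (adjusted p = 0.568). In the 17 libraries some differences were larger, and none of the 16 passed the correction either (lowest adjusted p = 0.127). Neat1 to Malat1 differed there by 0.94 on the log2 scale for WT EE against WT SH (exact p = 0.0357), against 0.03 in the 22, and by -0.64 for WT SH against KD SH (exact p = 0.00794), against -0.40. Malat1 to Meg3 for WT EE against WT SH was at -0.39 in the 17 and at 0.14 in the 22.

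The share of fragments in no gene reads how much sequence lay outside annotated exons, such as introns of unprocessed transcripts and the space between genes. It was 10.8% ± 0.387 in WT SH (SD, n = 6), 11.7% ± 1.49 in WT EE (n = 5), 10.9% ± 0.824 in KD SH (n = 6) and 11.1% ± 0.648 in KD EE (n = 5). The difference of 0.917 percentage points between WT EE and WT SH was not significant (exact permutation p = 0.208, adjusted over 4 comparisons 0.823), and it was 0.295 points without library 35A alone and 0.142 points in the 17 libraries. The other 3 comparisons gave exact p-values of 0.714, 0.823 and 0.476.

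Members were chosen with this share in view, so its relation to them is a description over 22 libraries. Pearson r of log2 CPM with the share was 0.63 for Malat1, 0.58 for Meg3, 0.58 for Mirg, 0.41 for Rian, 0.37 for Snhg11, 0.35 for Miat and -0.18 for Neat1. The median of the 7 was 0.41, against -0.01 over all genes tested, with quartiles of -0.23 and 0.23, and 5.57% of all genes had an r of 0.5 or more. All members but Neat1 thus lay above the upper quartile of all genes, and Neat1 lay below 0. Spearman's rho was 0.72 for Meg3, 0.57 for Mirg, 0.53 for Miat, 0.48 for Snhg11, 0.35 for Malat1, 0.33 for Rian and 0.00 for Neat1. Level and share were read from the same libraries, and the share's own fragments are not in the CPM denominator.

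The relation of Malat1 rested on library 35A. Without the 2 libraries farthest from the median share, 5 (12.3%) and 35A (14.2%), r was 0.23 for Malat1, 0.22 for Rian, 0.69 for Meg3, 0.55 for Miat, 0.52 for Mirg, 0.40 for Snhg11 and -0.06 for Neat1. Meg3, Miat, Mirg and Snhg11 thus kept an r of 0.40 or more among the 20 others. With deviations from the group means, r was 0.57 for Meg3, 0.46 for Rian, 0.60 for Mirg, 0.43 for Snhg11, 0.60 for Malat1, -0.30 for Neat1 and 0.26 for Miat. The choice of libraries moved these values. In the 17 libraries r was 0.73 for Meg3, 0.55 for Snhg11, 0.42 for Rian, 0.33 for Mirg, 0.32 for Miat, 0.22 for Malat1 and 0.18 for Neat1. With all 24, where 33B has by far the largest share, it was 0.75 for Malat1, 0.24 for Mirg, 0.17 for Neat1, 0.13 for Miat, 0.12 for Rian, -0.04 for Meg3 and -0.05 for Snhg11. Per percentage point of the share over the 22, the fitted level was 1.22-fold higher for Malat1, 1.11-fold for Mirg and 1.09-fold for Meg3. Depth moved with the members too: r with log10 counts on genes was -0.59 for Rian, -0.54 for Snhg11, -0.47 for Mirg, -0.42 for Meg3, -0.40 for Neat1, -0.23 for Miat and -0.12 for Malat1, against a median of 0.02 over all genes. Miat had an r of -0.71 with the share of mitochondrial counts. The part of depth in the relation was not tested.

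**Figure D3:**
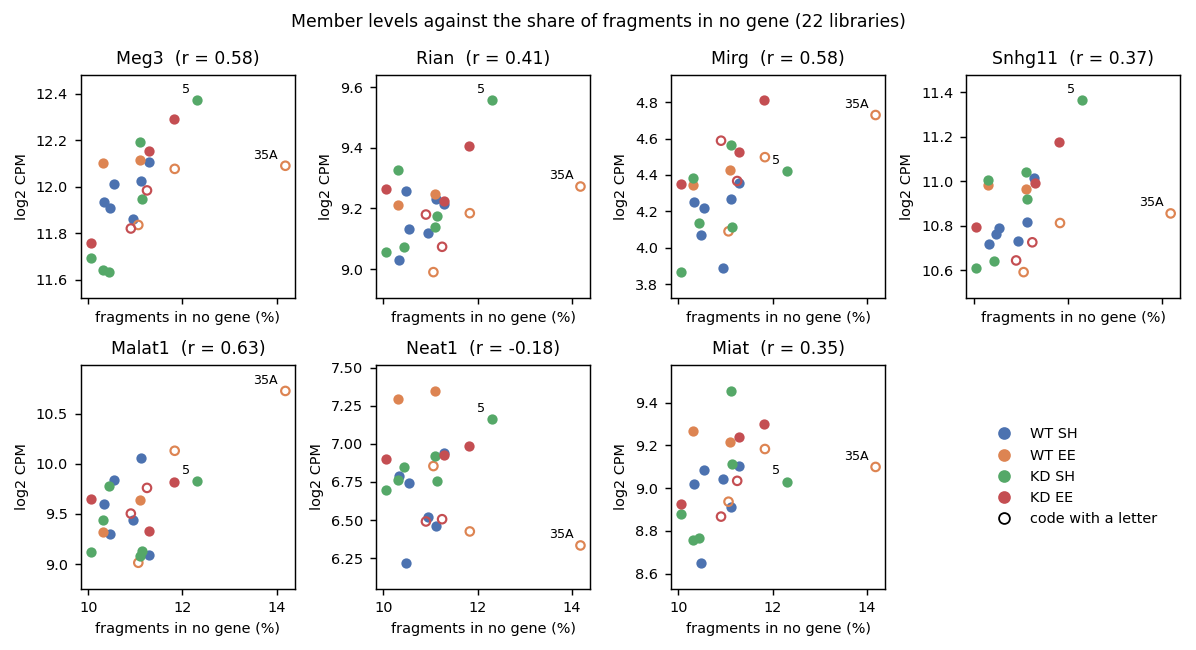
Log2 CPM of each member (vertical axis) against the percent of counted fragments in no gene (horizontal axis) in the 22 libraries, colored by group, with open points for codes with a letter. Libraries 5 and 35A are the 2 farthest from the median share, and 35A sets the top of the Malat1 panel.

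Other long noncoding RNAs, from a list of 44 of which 35 were tested, had a median r of 0.13 with the share, and 2 of them reached 0.5. These were Kcnq1ot1, an imprinted antisense RNA, with an r of 0.76 and Snhg14, another imprinted host transcript, with an r of 0.67 (both named after their values were seen). None of the 35 was called in the 22 libraries. In the 17, H19, an imprinted RNA of the maternal copy, was called for housing averaged over genotypes (1.90, SE 0.41, adjusted p = 0.00451, edgeR), where the choroid markers also differed. A list of 18 paraspeckle proteins had a median r of 0.15 with the share, and a list of 30 speckle and splicing factors a median of 0.22, with 23 of 30 above 0. Neither list held a called gene in any of the 7 comparisons of the 22 libraries.

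Levels of the members moved together in some pairs and not in others. Over the 22 libraries, the 21 pairs had a median Pearson r of 0.47, and 20 were above 0. Rian and Snhg11, on different chromosomes, had the highest r, 0.83, followed by Meg3 with Snhg11 at 0.75 and Meg3 with Miat at 0.74. Within the imprinted region, r was 0.58 for Meg3 with Mirg, 0.53 for Meg3 with Rian and 0.52 for Rian with Mirg, so neighbours on chromosome 12 were no closer than these pairs. Malat1 and Neat1, neighbours on chromosome 19, had the lowest r of all pairs, -0.32. The median r of the pairs was 0.46 with deviations from the group means.

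**Figure D4:**
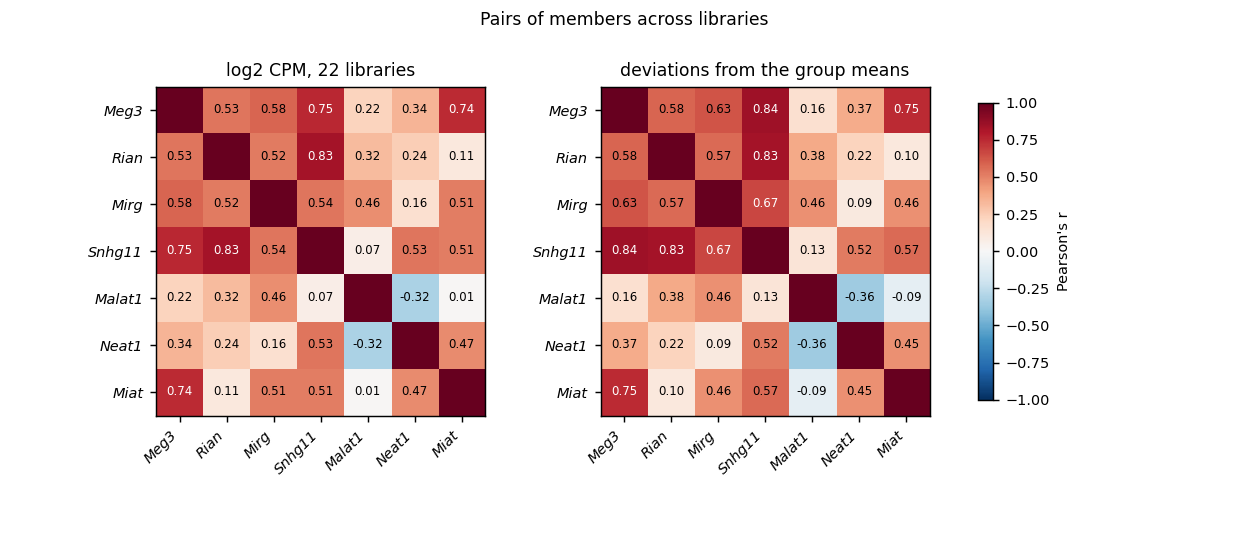
Pearson r between the members over the 22 libraries, from log2 CPM (left) and from deviations from the group means (right), on a color scale from -1 to 1. Rian with Snhg11 is the darkest pair off the diagonal on the left at 0.83, and Malat1 with Neat1 is the bluest at -0.32.

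For each member, the 3 genes of 10 CPM or more with the highest r over the 22 libraries were listed. For Meg3 they were Srrm2 (0.87) and Son (0.86), large proteins of nuclear speckles, and Las1l (0.85), which acts in ribosome assembly. For Rian they were Srsf1 (0.90), Srsf6 (0.87) and Hnrnph1 (0.87), which bind RNA in splicing. Snhg11 was closest to Slc25a27 (0.88), Akap8 (0.87) and the splicing factor Srsf11 (0.86). Several of these genes belong to the speckle and splicing list.

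Counts over that list showed how this varied by member. Of its 30 genes, 16 had an r of 0.5 or more with Rian, where 8.67% of all genes did, and 13 with Snhg11, where 3.86% did. Miat had 6 such genes (8.20% of all genes), Meg3 had 5 (3.88%), Mirg 3 (3.96%), Neat1 2 (4.43%) and Malat1 1 (2.68%). Rian and Snhg11 thus had shares of the list furthest above those of all genes. The shares of Meg3, Miat and Mirg were also higher, over few genes, whereas the counts of Malat1 and Neat1 lay near those of all genes. The median r over the list was 0.57 with Rian, 0.48 with Snhg11, 0.30 with Meg3, 0.26 with Mirg, 0.15 with Malat1, 0.12 with Neat1 and 0.07 with Miat. These are correlations over 22 libraries that share depth and share of fragments in no gene.

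The other members had other partners. Miat was closest to Fam193b (0.90), Gigyf1 (0.89), which represses translation, and Tars2 (0.88), a mitochondrial tRNA synthetase. Malat1 was closest to Pcsk1 (0.70), a protease that processes prohormones, Mettl16 (0.70), an RNA methyltransferase, and D10Wsu102e (0.69), and its best partners were less close than those of any other member. Neat1 was closest to Klhdc4 (0.81), AI480526 (0.79) and Stxbp2 (0.79), and Mirg to Shkbp1 (0.88), Slc2a4rg-ps (0.85) and the zinc transporter Slc39a2 (0.83). Over a list of 14 immediate early genes, which respond to neuronal activity, the median r was 0.44 with Malat1 and -0.51 with Neat1. It was -0.34 with Snhg11, -0.13 with Rian, -0.09 with Miat, -0.06 with Meg3 and 0.07 with Mirg. Over the genes of 10 CPM or more, the median r was 0.02 with Malat1, -0.06 with Neat1 and -0.06 with Snhg11.

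Genes beside the members were read next. Of 14 neighbours in the Dlk1-Dio3 region and 13 around Malat1 and Neat1, none was called in the 22 libraries, as none of the members was. The protein-coding genes of the imprinted region, which are read from the paternal copy, had low or negative r with Meg3: -0.12 for Dlk1, 0.13 for Rtl1 and -0.30 for Dio3. With Mirg, r was -0.36 for Dlk1, 0.41 for Rtl1 and -0.28 for Dio3. Counting ignored the strand, so RNA from the opposite strand of these genes could not be separated from theirs. Dlk1 was at 0.38 for WT SH against KD SH (SE 0.14, unadjusted p = 0.0108, adjusted p = 0.811). Snhg17, another snoRNA host 14058 bases from Snhg11, had an r of 0.75 with Snhg11.

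Ltbp3, a binding protein of latent TGF-beta that lies 37158 bases from Malat1, was called in the 17 libraries with a log2 fold change of 0.79 in WT EE against WT SH (SE 0.13, adjusted p = 0.0003) and 0.50 in KD EE against KD SH (SE 0.12, adjusted p = 0.0262). In the 22 libraries its log2 fold changes were 0.42 (SE 0.17, adjusted p = 0.466) and 0.37 (SE 0.17, adjusted p = 0.509). Ltbp3 had an r of 0.50 with Neat1 and -0.22 with Malat1. The choroid plexus sum moved with housing in the same libraries, and its part in the Ltbp3 call was not tested.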

How the data were processed

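Per the labels and methods, the authors extracted whole hippocampi, made TruSeq poly-A libraries, trimmed paired reads (Skewer), mapped them (STAR 2.5, GRCm38) and used HTSeq, without strand, to count uniquely aligned fragments per gene symbol of Ensembl 87. The deposited files hold these raw counts for 49568 symbols, plus closing lines, of which only those for no gene and for ambiguous fragments were above 0. These lines stayed out of library sizes and tests: fragments in no gene were 10.05% to 14.2% and ambiguous fragments 3.77% to 4.41% of all counted fragments. The authors' normalized table was not used. Groups came from the sample titles.

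Counts were filtered with filterByExpr, scaled by TMM and fitted in R 4.3.3 with edgeR 4.0.16, 1 mean per group, over all 22 libraries. DESeq2 1.42.0 was an alternative. Permutation tests used scipy 1.17.1 and were exact, and figures matplotlib 3.10.9. CPM is TMM-scaled, and log2 CPM used a prior count of 2. Sequences came from RefSeq tables and positions from GENCODE M21. The fit was tested on simulated data. Floors cover counting error only, since fragments carry no molecular identifiers. No 2 libraries of a group held identical counts.

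Members, lists, tests and alternatives were chosen with earlier results of these data known. Genes named are the members, list genes called in the 22 or 17 libraries (up to 5 a list), the 3 most alike genes of each member and genes flanking them. The 17-library fits with a covariate and with each library left out were added after seeing the data.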

Additional observations from a re-analysis of the deposited data

Results flagged for a closer look

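In 48 sets of values within groups, a test for a library standing apart from the rest of its group (Dixon's gap over range, at the 95% level) found 2, and chance alone gives about 1 in 20. In WT EE, Meg3 was at 3653 CPM in library 33A, against 4319 to 4437 CPM in the other 4 libraries. That library was the lowest of its group for 6 of the 7 members. In WT SH, Snhg11 was at 2067 CPM in library 12, against 1681 to 1801 CPM in the other 5. Library 12 also had 496 CPM of summed thalamus markers, against 159 to 195 CPM in the other WT SH libraries, and it is among those the study left out. The part of neighbouring tissue in the Snhg11 value was not tested.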

How the results depend on the processing

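No paired analysis was possible because the groups share no replicate numbers. No member was called under any of the alternatives to the 22-library fit, except Neat1, called (1 member) for WT EE against WT SH in the 17 libraries, without lettered libraries (0.70, adjusted p = 0.00992) and in the 17 with the no-gene share as a covariate (0.61, adjusted p = 0.00925), and for housing averaged without lettered libraries (0.39, adjusted p = 0.0488). Malat1 reversed: for WT EE against WT SH it was -0.33 in the 17 libraries, -0.10 without lettered libraries, -0.054 with the share as a covariate, -0.23 and -0.35 in the 17 with the choroid or share covariate, and -0.010 to 0.46 with each library left out (lowest without 35A). For WT EE against KD EE it was -0.22, -0.12, -0.0088, -0.20, -0.22 and -0.038 to 0.44 in the same order, and for housing averaged -0.055 in the 17 and -0.047 in the 17 with the share covariate. Sign changes count only where an estimate reached its SE. Counts of all genes called moved in the 17 libraries to 664 for housing in WT, 325 for housing in KD, 1 for genotype in EE and 720 for housing averaged, and to 672, 320 and 726 with the share covariate and 0 (housing averaged) with the choroid covariate. For WT EE against WT SH they were 1 with 24 libraries, 18 with DESeq2, 7 with no filter, 314 without lettered libraries and 4 with the share covariate. DESeq2 called 4 for KD EE against KD SH and 2 for WT SH against KD SH. For housing averaged they were 90 with 24 libraries, 44 with DESeq2 size factors, 50 with total counts, 214 with DESeq2, 209 with no filter, 45 with 10 counts in every library, 80 without lettered libraries, 9 with the choroid covariate, 333 with the share covariate and 49 with adjusted p alone. Leaving out each library gave 0 to 1, 0 to 1 and 2 to 287 genes for housing in KD, genotype in EE and housing averaged. With the share, r was 0.22 for Malat1 in the 17 libraries and 0.23 without the 2 farthest, and -0.04 for Meg3 with all 24. Neat1 turned from -0.18 to 0.18 in the 17, and Snhg11 from 0.37 to -0.05 with all 24. The no-gene share difference between WT EE and WT SH was -0.0757 points without lettered libraries. The causes were not tested. Ratios with all 24 libraries were not run, since 34B has 0 counts for Mirg and Neat1.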

Other observations

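The 2 libraries that failed quality control went into none of the main comparisons above, only into the alternatives with all 24 libraries. The study reported ribosomal RNA contamination in both. Whether their shares in no gene read the same kind of sequence as in the 22 was not tested. In library 33B, with 35.6% of its fragments in no gene, Malat1 was at 2597 CPM, above the 1692 CPM of library 35A and every other library, while Meg3 (3972 CPM), Rian (547.5 CPM), Snhg11 (1599 CPM), Neat1 (107 CPM) and Miat (506 CPM) lay within the ranges of the 22. Mirg was at 27.5 CPM there, near the top of its range. Library 34B, with 16442 counts, had 0 counts for Mirg and for Neat1 and is too shallow for a value of either.

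Among genes of 10 CPM or more, those with the 3 highest correlations with the share of fragments in no gene, named after their values were seen, were Ubn2 (0.89), D10Wsu102e (0.80) and Ncoa3 (0.80), a nuclear receptor coactivator. Those with the 3 lowest were Nhp2 (-0.87), a protein of small nucleolar ribonucleoproteins, Tmem50a (-0.86) and the ribosomal protein gene Rpl28 (-0.83). Each value is over the 22 libraries and is a description.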
